A study of Mus musculus with 8 samples.

Results

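The genes described here are those through which the tumour suppressor p53 stops the cell cycle and those that feed back on p53 itself: Cdkn1a, Btg2, Gadd45a, Plk2, Ccng1, Mdm2, Ppm1d, Mdm4 and Trp53. Probe sets were taken wherever the array annotation supplied with the data assigned them to a single one of these genes. That gave 19 probe sets for 8 of the 9 listed genes, out of 18193 genes named by such probe sets on the whole array. Trp53 itself is not analysed here. Of the 19 probe sets, 16 passed a filter that kept the brighter part of all probe sets, set at their median signal of 68.8. The other 3, one each for Mdm2, Plk2 and Mdm4, lay between 3.6 and 49.6 on the 8 arrays and are given as values only.

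The samples were B16F1 tumours, a transplantable mouse melanoma line, grown from cells injected under the skin of the right hind limb. The hosts were TNFR1,2 -/- mice (B6;129S-Tnfrsf1a[tm1Imx] Tnfrsf1b[tm1Imx]/J, called TNFR KO here), which lack both receptors for tumour necrosis factor, or C57BL/6-NCr mice (WT), aged 8 to 12 weeks. The 4 groups were TNFR KO irradiated, TNFR KO untreated, WT irradiated and WT untreated. Irradiated tumours received a single dose of 20 Gy of X-rays at 268 to 478 mm3, with the rest of the body shielded, and all tumours were taken 5 h after treatment. The same tumour line was used in both hosts, so the genotype is that of the host cells within the tumour. The labels give the strain background of the TNFR KO mice as B6;129S in one field and C57BL/6 in another, so loss of the receptors and other strain differences cannot be told apart. RNA of whole tumours from 5 to 7 mice of each host went into 1 pool for each group, and every pool was hybridised to 2 arrays. The 2 arrays of a pool are technical duplicates: a test on them compares these pools against array noise, not the conditions against the spread between animals. In whole tumours, fewer cells of a type and less RNA per cell cannot be told apart.

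p53 is a transcription factor that is held at a low level by the ubiquitin ligase Mdm2 and its partner Mdm4. After DNA breaks, kinases of the damage response modify all of these proteins, p53 accumulates, and it switches on genes that halt the cell cycle. Several of its targets, Mdm2, Ppm1d and Ccng1 among them, then act back on p53 and on the kinases and bring the response to an end.

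Promoters of the genes with the widest radiation differences are shown to let the motif that p53 binds be seen in its context, and Mdm2 is added as the feedback ligase. Each is the RefSeq sequence of GRCm38.p6 from 250 bases before to 50 bases after a transcript start, read 5′ to 3′ on the strand of the gene, and capitals mark matches to the p53 decamer half-site consensus. The windows are chr17:29090729-29091028 (+) for the upstream start of Cdkn1a, chr11:40755237-40755536 (-) for Ccng1, chr10:117710709-117711008 (-) for Mdm2, chr1:134079106-134079405 (-) for Btg2 and chr13:110394794-110395093 (+) for Plk2.
Cdkn1a: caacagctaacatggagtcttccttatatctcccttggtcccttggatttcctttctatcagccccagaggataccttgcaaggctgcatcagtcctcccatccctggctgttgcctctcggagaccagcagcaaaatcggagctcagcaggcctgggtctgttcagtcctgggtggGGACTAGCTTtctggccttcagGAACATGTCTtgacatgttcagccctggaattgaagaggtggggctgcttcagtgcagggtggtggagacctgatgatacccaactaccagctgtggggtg
Ccng1: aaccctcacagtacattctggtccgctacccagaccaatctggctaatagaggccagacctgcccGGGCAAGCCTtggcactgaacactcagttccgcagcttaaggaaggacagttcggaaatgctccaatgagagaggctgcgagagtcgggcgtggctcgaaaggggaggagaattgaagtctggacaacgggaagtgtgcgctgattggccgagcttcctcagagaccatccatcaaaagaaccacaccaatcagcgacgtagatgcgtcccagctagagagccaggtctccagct
Mdm2: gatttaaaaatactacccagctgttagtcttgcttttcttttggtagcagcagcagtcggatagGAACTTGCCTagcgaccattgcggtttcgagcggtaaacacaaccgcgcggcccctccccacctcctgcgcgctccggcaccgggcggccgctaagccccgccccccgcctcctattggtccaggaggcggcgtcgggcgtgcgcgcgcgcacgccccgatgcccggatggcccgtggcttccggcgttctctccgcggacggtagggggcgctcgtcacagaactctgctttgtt
Btg2: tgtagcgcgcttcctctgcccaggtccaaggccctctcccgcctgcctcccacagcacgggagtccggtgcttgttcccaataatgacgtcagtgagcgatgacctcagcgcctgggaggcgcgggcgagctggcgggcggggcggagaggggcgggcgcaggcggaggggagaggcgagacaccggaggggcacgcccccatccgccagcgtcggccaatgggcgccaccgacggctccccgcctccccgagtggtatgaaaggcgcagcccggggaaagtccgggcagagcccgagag
Plk2: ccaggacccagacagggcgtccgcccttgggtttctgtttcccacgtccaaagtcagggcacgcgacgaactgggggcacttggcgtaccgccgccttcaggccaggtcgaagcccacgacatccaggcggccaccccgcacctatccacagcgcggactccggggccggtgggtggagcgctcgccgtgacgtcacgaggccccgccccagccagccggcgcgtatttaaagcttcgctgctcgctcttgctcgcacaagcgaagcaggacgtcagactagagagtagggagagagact

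The Cdkn1a window held 2 matches, at bases -73 to -64 and -51 to -42 from the start, with 12 bases between them. The search took full matches only, so the bases directly after the second match, which miss the consensus at their first position, are unmarked. Ccng1 had its match at -185 to -176 and Mdm2 at -186 to -177. The Mdm2 window lies at the upstream end of the gene and not at the internal promoter from which p53 induces it. The corresponding windows of Gadd45a, at chr6:67037358-67037657 (-), and of Ppm1d, at chr11:85311004-85311303 (+), each held 1 match, at -40 to -31 and -132 to -123. No match stood in the windows of Btg2 and Plk2, in the 2 windows of Mdm4 or at the downstream start of Cdkn1a. In all, 5 of the 10 windows of the 8 genes held the motif on either strand, against 8.36% of 32851 mouse promoter windows of the same length. The TATA box core TATAAA, found in 13.6% of those windows, and the cell-cycle element TTTGAA, found in 17.9%, were in none of the 10. A match in these letters is a description of the window and not a site of binding. The genes themselves span chr17:29090979-29100722 for Cdkn1a, chr11:40748552-40755309 for Ccng1, chr10:117688875-117710758 for Mdm2, chr1:134074865-134079155 for Btg2 and chr13:110395044-110400844 for Plk2. Gadd45a lies at chr6:67035096-67037407, Ppm1d at chr11:85311254-85347071 and Mdm4 at chr1:132986105-133030587.

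Values are MAS5 signals, a linear brightness scaled by the authors to the same mean on every array, and log2 differences were taken between values of log2(signal + 16). That scale understates changes of dim probe sets. Correlations between arrays over all probe sets were 0.975 to 0.981 for duplicates, 0.971 to 0.972 between treatments of one host and 0.955 to 0.964 between hosts. The melanocyte markers Pmel, Tyr, Tyrp1, Dct, Mlana, Mitf and Sox10 were all above the filter, with a summed signal of 150360 to 158960 on the TNFR KO irradiated arrays, 148880 to 157860 on the TNFR KO untreated, 160420 to 180810 on the WT irradiated and 144990 to 155300 on the WT untreated arrays. The transcripts dap, lys, phe and thr, which are spiked into RNA before labelling, averaged 10.4 to 39.6 on the TNFR KO arrays and 4395 to 22387 on the WT arrays, so host and target preparation cannot be told apart in any host difference below. The spike dap averaged 15.9 and 15.3 in the irradiated and untreated TNFR KO pools and 27784 and 16989 in the irradiated and untreated WT pools. Probe sets for 18S rRNA averaged 944 and 529 in the irradiated and untreated TNFR KO pools and 340 and 293 in the irradiated and untreated WT pools.

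Irradiation was followed by higher signals of the arrest genes Cdkn1a, Btg2 and Plk2, of Ccng1 and of Mdm2 in both hosts. In TNFR KO tumours 10 of the 16 tested probe sets, from these 5 genes, were called higher and 0 lower. A call means an adjusted p under 0.05 and at least a 2-fold difference in limma on the 8 arrays. Over all 22519 tested probe sets 0.706% were called higher and 0.568% lower in that comparison, and 16.4% had an adjusted p under 0.05 at any fold. In WT tumours 9 of 16, from the same 5 genes, were called higher and 0 lower, against 1.99% and 0.231% of all tested probe sets, and 18.7% had an adjusted p under 0.05 at any fold. The median log2 difference of the 16 was 1.53 in TNFR KO and 1.20 in WT tumours, beside -0.03 and -0.006 over all tested probe sets. The plot of signals on every array shows where the pools stand for each gene.

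**Figure D1:**
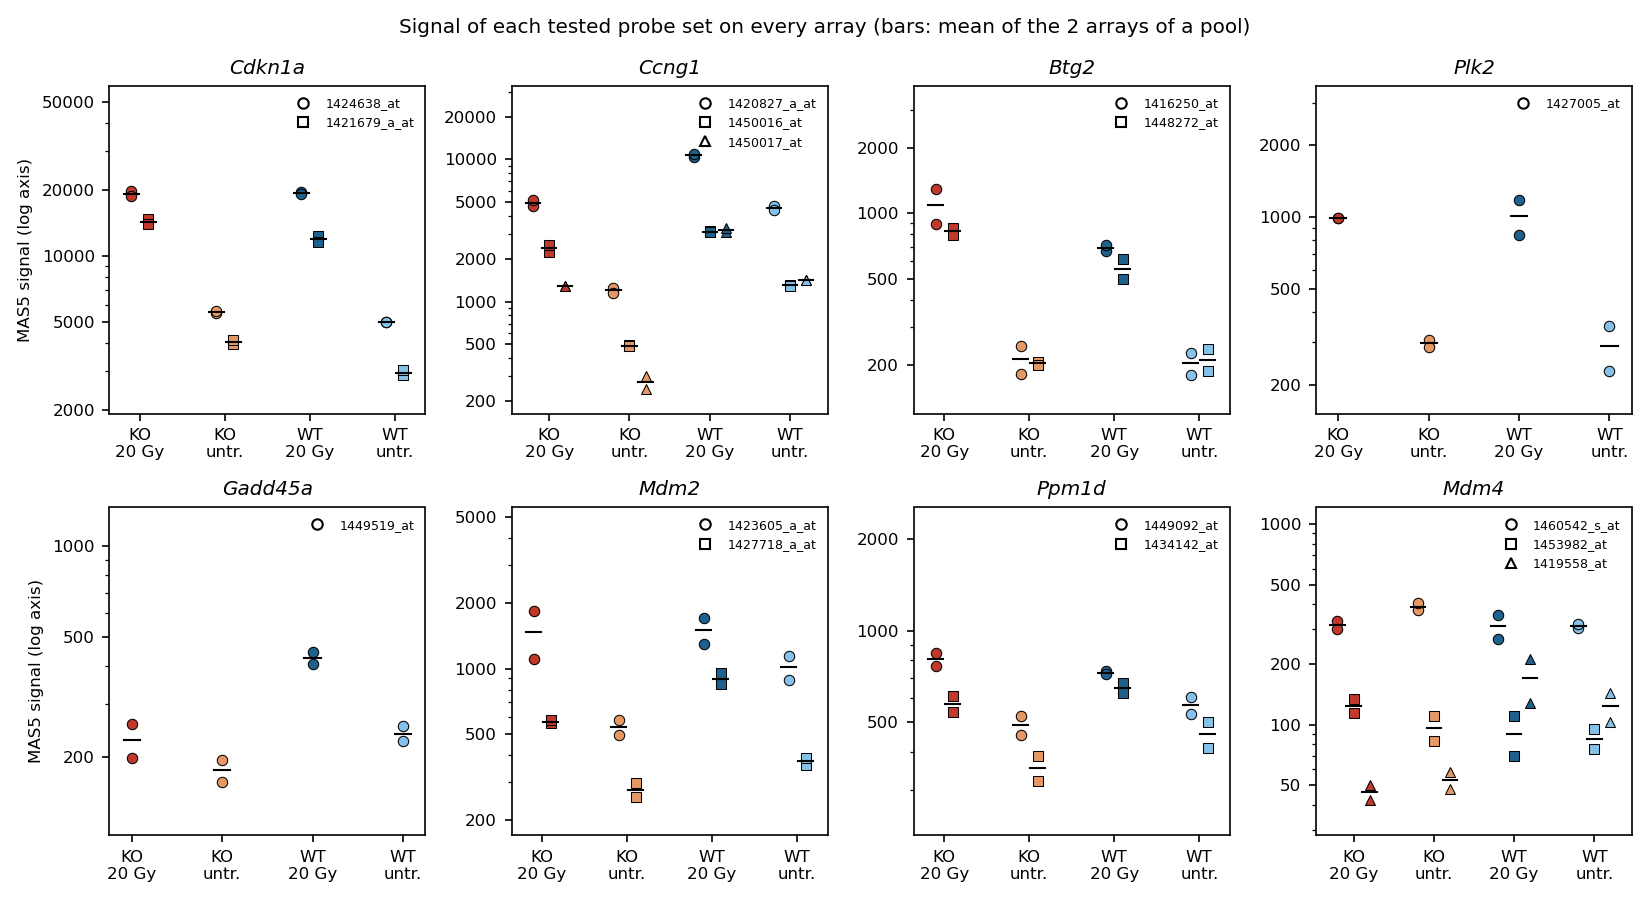
MAS5 signal (vertical log axis) of each of the 16 tested probe sets on every array, by group; symbols mark probe sets and bars the mean of the 2 arrays of a pool. Both irradiated pools lie above both untreated pools for Cdkn1a, Btg2 and Plk2, whereas the irradiated TNFR KO pool of Ccng1 lies near or below the untreated WT pool on 2 of its 3 probe sets.

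Cdkn1a encodes p21, the inhibitor of cyclin-dependent kinases that carries much of the p53-dependent arrest. Its probe set 1424638_at read 19738.5 and 18700.8 on the TNFR KO irradiated arrays, 5479.5 and 5619 on the TNFR KO untreated, 19462.5 and 19041.5 on the WT irradiated and 4990.2 and 5003.2 on the WT untreated arrays. All irradiated arrays lay above all untreated ones, and the irradiated arrays of the 2 hosts overlapped. The log2 difference was 1.79 ± 0.06 (SE) in TNFR KO tumours, or 3.46-fold (adjusted p = 0.000379), and 1.94 ± 0.06, or 3.84-fold, in WT tumours (adjusted p = 0.000295). The second probe set, 1421679_a_at, read 14644.7 and 13968.4 in the TNFR KO irradiated pool, 3966.1 and 4142.7 in the TNFR KO untreated, 12326.2 and 11516.5 in the WT irradiated and 2881.9 and 3020.3 in the WT untreated pool. On this probe set each TNFR KO pool stood above the WT pool of the same treatment with no overlap, while the radiation differences were again close, at 1.81 ± 0.07 in TNFR KO and 2.01 ± 0.07 in WT tumours. The radiation effect of TNFR KO minus that of WT was -0.15 for the first probe set (95% interval -0.38 to 0.07) and -0.19 for the second (-0.45 to 0.06), with adjusted p = 0.346 and 0.30 in limma.

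Btg2 encodes an antiproliferative protein that recruits deadenylases to mRNA and is induced by p53. On 1416250_at it gave 1292 and 890.3 in the TNFR KO irradiated pool, 180.9 and 244 in the TNFR KO untreated, 669.4 and 713.2 in the WT irradiated and 227 and 178.5 in the WT untreated pool. The untreated pools of the hosts overlapped, and the irradiated TNFR KO arrays were both above the irradiated WT arrays. The probe set was 4.81-fold higher after irradiation in TNFR KO (2.27 ± 0.22) and 3.25-fold in WT tumours (1.70 ± 0.22). Its other probe set, 1448272_at, read 855.2 and 798.1 in irradiated and 206.6 and 200.3 in untreated TNFR KO tumours, and 615.9 and 495.2 in irradiated and 236.2 and 186.4 in untreated WT tumours. Again the untreated pools overlapped and the irradiated TNFR KO arrays were both above the irradiated WT arrays. The log2 differences were 1.94 ± 0.14 in TNFR KO and 1.33 ± 0.14 in WT tumours. All of these passed, with adjusted p between 0.00273 and 0.00844. The difference between the hosts' radiation effects was 0.57 (95% interval -0.21 to 1.34) and 0.61 (0.11 to 1.11), and neither passed (adjusted p = 0.314 and 0.130).

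Plk2, a polo-like kinase of G1 and S phase and a p53 target, is described from 1427005_at. It read 988 and 986.7 on the irradiated TNFR KO arrays, 308.2 and 287 on the untreated TNFR KO arrays, 1172.9 and 843.7 on the irradiated WT arrays and 227.4 and 351.7 on the untreated WT arrays. Irradiated and untreated arrays did not overlap, and the hosts overlapped within each treatment. The log2 difference was 1.68 ± 0.23 in TNFR KO (3.20-fold, adjusted p = 0.0106) and 1.76 ± 0.23 in WT tumours (3.38-fold, adjusted p = 0.00825). The hosts' effects differed by -0.08, with a wide interval of -0.87 to 0.71. In TNFR KO tumours the call was lost without untreated replicate 1 (adjusted p = 0.0588) or replicate 2 (adjusted p = 0.0606), with log2 differences of 1.73 and 1.63. The dim probe set 1443780_at read 21.6 and 8.2 in the irradiated TNFR KO pool, 16.7 and 20.2 in the untreated TNFR KO, 20.2 and 3.6 in the irradiated WT and 4.6 and 4.8 in the untreated WT pool.

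Gadd45a, a small stress protein that binds p21 and the replication clamp and has been linked to the G2 checkpoint, behaved differently. Its probe set 1449519_at read 257.7 and 199.2 in irradiated TNFR KO tumours, 165.6 and 196.2 in untreated TNFR KO tumours, 446.5 and 407.5 in irradiated WT tumours and 225.3 and 253.3 in untreated WT tumours. The irradiated WT arrays stood above all others, and the irradiated TNFR KO arrays overlapped the untreated WT arrays. Its log2 difference was 0.31 ± 0.15 in TNFR KO (1.24-fold, adjusted p = 0.199) and 0.80 ± 0.15 in WT tumours (1.74-fold), where the adjusted p of 0.0194 passed but the fold did not. The effect in TNFR KO minus that in WT was -0.49 (95% interval -0.99 to 0.02, adjusted p = 0.203).

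Ccng1, which encodes cyclin G1, a p53 target that recruits a phosphatase to Mdm2, combined a radiation difference with a host difference. Probe set 1420827_a_at read 4726.5 and 5218.1 in the irradiated TNFR KO pool, 1243.1 and 1150.2 in the untreated TNFR KO, 10474.5 and 10971.2 in the irradiated WT and 4676.6 and 4423.3 in the untreated WT pool. The irradiated TNFR KO tumours thus stood barely above the untreated WT tumours. Probe set 1450017_at gave 1282.8 and 1278.2 in irradiated TNFR KO, 296.9 and 244 in untreated TNFR KO, 3098.4 and 3280.9 in irradiated WT and 1426.6 and 1409 in untreated WT tumours. Here even the irradiated TNFR KO arrays lay below the untreated WT arrays. The remaining probe set, 1450016_at, read 2244.8 and 2499.8 in irradiated and 495.4 and 484.3 in untreated TNFR KO tumours, against 3144 and 3071.9 in irradiated and 1304 and 1295.6 in untreated WT tumours. On this probe set the irradiated TNFR KO arrays stood clearly above the untreated WT arrays. On all 3 probe sets the irradiated WT pool was highest and the untreated TNFR KO pool lowest, with no overlap between either of them and another pool.

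In TNFR KO tumours Ccng1 was 4.11-fold, 4.55-fold and 4.71-fold higher after irradiation on 1420827_a_at, 1450017_at and 1450016_at (log2 differences 2.04 ± 0.08, 2.18 ± 0.10 and 2.24 ± 0.08). In WT tumours the same probe sets were 2.35-fold, 2.23-fold and 2.37-fold higher (1.23 ± 0.08, 1.16 ± 0.10 and 1.25 ± 0.08). All 6 passed, with adjusted p of at most 0.00278. With every array centred on its median signal, the 3 WT differences were 0.98, 0.90 and 0.99, just under 2-fold. Centring moved all probe sets by 0.26 in this comparison, in which the median signal was 79.3 and 78.6 on the irradiated against 64.9 and 61.9 on the untreated WT arrays.

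The difference between the hosts' radiation effects was called for 1 of the 16 probe sets, 1450017_at of Ccng1, at 1.02 ± 0.14 (95% interval 0.68 to 1.37, adjusted p = 0.0189), where 0.182% of all tested probe sets were called higher and 2.56% lower and 6.78% had an adjusted p under 0.05 at any fold. On 1450016_at it was 0.99 ± 0.11 (adjusted p = 0.0105) and on 1420827_a_at 0.81 ± 0.12 (adjusted p = 0.0224), both under 2-fold. Leaving out single arrays gave 0.89 to 1.16, and the call was lost without any one of 7 of the 8 arrays, the exception being TNFR KO untreated replicate 1. On the linear scale, a comparison added after the data were seen, 1450017_at gained 1010 units in TNFR KO and 1772 units in WT tumours. The gains of 1420827_a_at were 3776 and 6173 units, and those of 1450016_at 1882 and 1808 units. Of the 3 probe sets, 1450016_at alone gained more signal in TNFR KO tumours, and the untreated level was lower in TNFR KO tumours on each. The plot of radiation effects by host sets these differences against those of all probe sets.

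**Figure D2:**
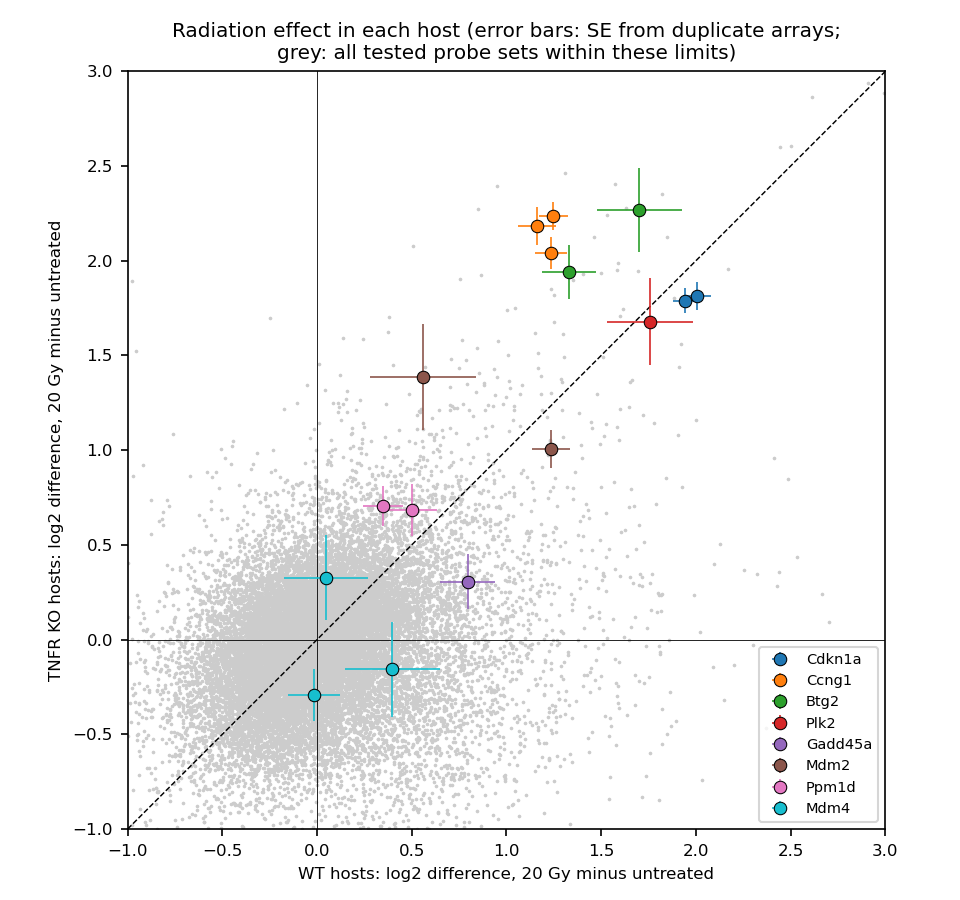
Log2 difference between irradiated and untreated tumours in TNFR KO hosts (vertical) against WT hosts (horizontal) for the 16 tested probe sets, coloured by gene, with bars of 1 SE from duplicate arrays; grey points are all tested probe sets within these limits and the dashed line marks equal effects. The 3 Ccng1 probe sets lie above the line at 2.04 to 2.24 in TNFR KO and 1.16 to 1.25 in WT hosts, and Cdkn1a and Plk2 lie close to it.

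Mdm2, the ligase that marks p53 for degradation, is itself induced by p53 from an internal promoter. Probe set 1427718_a_at read 559 and 575.7 in irradiated and 255.7 and 294.7 in untreated TNFR KO tumours, and 952.4 and 844 in irradiated and 359.2 and 385.5 in untreated WT tumours. No pool overlapped another, and the irradiated WT pool stood highest. The log2 difference was 1.01 ± 0.10 in TNFR KO (2.01-fold, adjusted p = 0.00553) and 1.23 ± 0.10 in WT tumours (2.35-fold, adjusted p = 0.00247). Both lie close to the fold limit: centring the arrays gave 0.98 in TNFR KO and 0.98 in WT tumours, and the TNFR KO value was 0.91 without untreated replicate 1 and 0.98 without irradiated replicate 2. Probe set 1423605_a_at read 1844.7 and 1101.3 in irradiated and 581.7 and 492.4 in untreated TNFR KO tumours, and 1295.8 and 1713.8 in irradiated and 1145.1 and 885.2 in untreated WT tumours. Its duplicates lay far apart, and the irradiated TNFR KO arrays overlapped both WT pools. It was called in TNFR KO (1.39 ± 0.28, adjusted p = 0.0262) and not in WT tumours (0.56 ± 0.28, adjusted p = 0.205), but the difference between these effects, 0.83 with an interval of -0.14 to 1.80, did not pass (adjusted p = 0.249). The call in TNFR KO tumours was lost without untreated replicate 1 (adjusted p = 0.0891), untreated replicate 2 (adjusted p = 0.116) or irradiated replicate 1 (adjusted p = 0.0747), with log2 differences of at least 1.02. A dim probe set, 1457929_at, read 36.5 and 26.4 in irradiated and 24.1 and 38 in untreated TNFR KO tumours, and 4.4 and 28.2 in irradiated and 18.3 and 14.3 in untreated WT tumours.

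Ppm1d encodes Wip1, the phosphatase that dephosphorylates p53 and the damage kinases. On 1449092_at it read 765.8 and 847.3 in irradiated and 522.1 and 455 in untreated TNFR KO tumours, and 737.9 and 717.8 in irradiated and 606.9 and 533.2 in untreated WT tumours. On 1434142_at the values were 610.5 and 538.7 in irradiated against 319.1 and 386.5 in untreated TNFR KO tumours, and 670.8 and 624.8 in irradiated against 499.2 and 411.8 in untreated WT tumours. Every irradiated array exceeded every untreated one on each probe set. The differences were below 2-fold, at 0.71 ± 0.11 and 0.68 ± 0.14 in TNFR KO (adjusted p = 0.0129 and 0.0261) and 0.35 ± 0.11 and 0.50 ± 0.14 in WT tumours (adjusted p = 0.0701 and 0.0546).

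Mdm4, also called Mdmx, binds the activation domain of p53 and blocks it, and showed no radiation call on any of its 3 tested probe sets. Probe set 1460542_s_at, whose suffix marks probes that may read transcripts of more than one gene, gave 328.7 and 300.8 in irradiated and 373.5 and 403.9 in untreated TNFR KO tumours, and 266.5 and 352.6 in irradiated and 302.4 and 318.3 in untreated WT tumours. Its log2 difference was -0.29 ± 0.14 in TNFR KO (95% interval -0.62 to 0.04) and -0.02 ± 0.14 in WT tumours (-0.35 to 0.32). On 1453982_at the values were 134.5 and 115.1 in irradiated and 83.3 and 110.5 in untreated TNFR KO tumours, and 69.7 and 111 in irradiated and 95 and 75.8 in untreated WT tumours. The irradiated TNFR KO arrays lay above all others, and the other 3 pools overlapped. The differences of 0.33 ± 0.22 in TNFR KO (adjusted p = 0.355) and 0.05 ± 0.22 in WT tumours (adjusted p = 0.9) did not pass. On 1419558_at the pools separated by host instead: 49.9 and 42.4 in irradiated and 48.2 and 58.5 in untreated TNFR KO tumours, against 213.2 and 128.7 in irradiated and 144.6 and 103.1 in untreated WT tumours. Every TNFR KO array lay below every WT array there, and also below the filter signal of 68.8, so the probe set was tested only through its WT arrays and its host calls are no support for a host difference. The dim probe set 1458223_at read 49.6 and 29.1 in irradiated and 38.6 and 15 in untreated TNFR KO tumours, and 19.7 and 11.3 in irradiated and 30.8 and 25.4 in untreated WT tumours.

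When radiation was tested over both hosts on the 4 pool means, none of the 16 probe sets was called at an adjusted p under 0.05 in limma. In that fit 0.0222% of all tested probe sets were called higher and 0% lower. Its only residual degree of freedom is the difference between the hosts' radiation effects, so it holds no spread between replicate pools. The log2 differences were 1.87 ± 0.16 and 1.91 ± 0.16 for Cdkn1a (adjusted p = 0.0903 each), 1.98 ± 0.20 and 1.64 ± 0.20 for Btg2 (0.107 and 0.159), 1.72 ± 0.16 for Plk2 (0.0968) and 1.64 ± 0.23 to 1.74 ± 0.26 for Ccng1 (adjusted p of at least 0.193). Mdm2 had 0.97 ± 0.24 and 1.12 ± 0.16, Gadd45a 0.55 ± 0.19, Ppm1d 0.53 ± 0.17 and 0.59 ± 0.16, and Mdm4 -0.15 to 0.19. Limited to the brightest probe set of each of 11345 genes, of which 1.55% were then called higher, the fit called 5 genes higher: Cdkn1a (adjusted p = 0.00032), Btg2 (0.000426), Plk2 (0.000457), Ccng1 (0.00245) and Mdm2 (0.0437). The limma-trend fit called 10 of the 16 higher, beside 0.844% of all tested probe sets.

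Marker genes of other cells moved with irradiation. Of 3 tested erythroid markers, 3 were called higher in TNFR KO and 2 in WT tumours, with a summed signal of 4479 to 5134 on irradiated against 577.5 to 645 on untreated TNFR KO arrays and 1876 to 1913 on irradiated against 491.9 to 607.4 on untreated WT arrays. Of 5 tested skeletal muscle markers, 3 were lower in TNFR KO and 3 in WT tumours, with sums of 443.7 to 519 on irradiated against 1090 to 1247 on untreated TNFR KO arrays and 794.6 to 954.5 on irradiated against 2855 to 2936 on untreated WT arrays. Of 3 tested neutrophil markers, 0 were called in TNFR KO and 2 were higher in WT tumours. Macrophage markers had 1 of 6 lower in TNFR KO and 1 higher in WT tumours, fibroblast markers 0 of 5 called in TNFR KO and 1 higher in WT tumours, and keratinocyte markers 1 of 4 lower in each host. Endothelial and lymphocyte markers gave 0 calls. None of these markers was listed at 0. Melanocyte markers had 0 of 7 calls in either host. The part of these cells in the values of Cdkn1a, Btg2, Plk2, Ccng1 and Mdm2 was not tested.

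Between the hosts, Ccng1 was lower in TNFR KO than in WT tumours. Over both treatments 3 of the 16 probe sets were called lower and 0 higher at an adjusted p under 0.05, where 13.3% and 4.18% of all tested probe sets were. The 3 include 1419558_at of Mdm4, which passed the filter only through its WT arrays. The other calls were both of Ccng1. Without 1419558_at the count is near the share over all tested probe sets, and it is no result about the 16 as a set. Ccng1 differed by -1.51 ± 0.23 on 1420827_a_at (2.85-fold, adjusted p = 0.0193), by -1.82 ± 0.27 on 1450017_at (3.52-fold, adjusted p = 0.018) and, short of the threshold, by -0.88 ± 0.26 on 1450016_at (adjusted p = 0.0742). Mdm4 differed by -1.28 ± 0.20 on 1419558_at (2.42-fold, adjusted p = 0.0193), but by 0.17 ± 0.17 and 0.29 ± 0.17 on its other tested probe sets. The call of 1419558_at was lost without WT untreated replicate 1 (-1.17, adjusted p = 0.0535). Gadd45a (-0.62 ± 0.19, adjusted p = 0.0763) and Mdm2 (-0.48 ± 0.24 and -0.53 ± 0.16) were not called. With no filter on dim probe sets none of the 16 was called.

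Within irradiated tumours 3 of the 16 were called lower and 0 higher in TNFR KO hosts, against 7.7% and 0.959% of all tested probe sets. An adjusted p under 0.05 at any fold was reached by 47.9% of all tested probe sets here. They were 1420827_a_at and 1450017_at of Ccng1 (-1.11 ± 0.08 and -1.31 ± 0.10) and 1419558_at of Mdm4 (-1.55 ± 0.25), the last again against TNFR KO arrays dimmer than the filter. The Ccng1 probe set 1450016_at differed by -0.39 ± 0.08 (adjusted p = 0.0077), short of 2-fold. Gadd45a was 1.82-fold lower (-0.87 ± 0.15, adjusted p = 0.00462) and Mdm2 1.56-fold lower on 1427718_a_at (-0.65 ± 0.10, adjusted p = 0.00344), both short of 2-fold. Without TNFR KO irradiated replicate 1 the Gadd45a difference was -1.04 and passed. Btg2 was 1.54-fold and 1.48-fold higher (adjusted p = 0.0624 and 0.0204), while Cdkn1a differed by -0.003 ± 0.06 on one probe set (95% interval -0.16 to 0.16) and by 0.26 ± 0.07 on the other.

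Within untreated tumours the 3 probe sets called lower in TNFR KO hosts were the 3 of Ccng1, and 0 were higher, against 6.74% and 3.53% of all tested probe sets, with 45.9% at an adjusted p under 0.05 at any fold. They differed by -1.91 ± 0.08, -1.38 ± 0.08 and -2.33 ± 0.10 on 1420827_a_at, 1450016_at and 1450017_at, or 3.77-fold, 2.60-fold and 5.03-fold (adjusted p of at most 0.000256). The value of 1450017_at was among the lowest 0.0266% of all tested probe sets in this comparison. Mdm4 on 1419558_at, at -0.9998 ± 0.25, fell just short of 2-fold, and was at -1.22 without WT untreated replicate 2. Its TNFR KO arrays were again dimmer than the filter, so neither value is support for a host difference. Mdm2 was lower by less than 2-fold on each tested probe set (-0.89 ± 0.28 and -0.42 ± 0.10, adjusted p = 0.0427 and 0.0176). Cdkn1a was 1.37-fold higher on 1421679_a_at (0.46 ± 0.07, adjusted p = 0.00425), and Btg2 and Plk2 differed by -0.04 to 0.07. Centring the arrays, which lowers every untreated host difference by 0.20, raised the count of probe sets called lower to 5. The plot of host differences shows both treatments side by side.

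**Figure D3:**
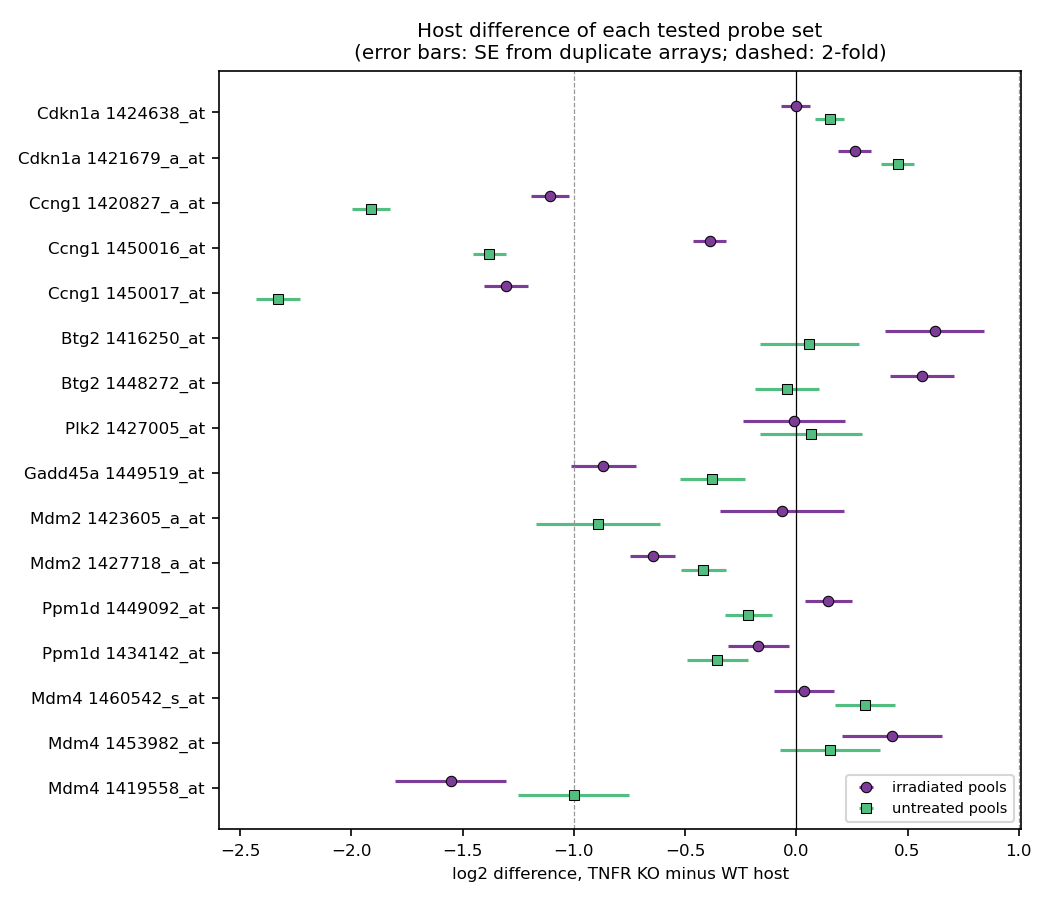
Log2 difference between TNFR KO and WT hosts for each of the 16 tested probe sets, in irradiated (circles) and untreated (squares) pools, with bars of 1 SE from duplicate arrays and dashed lines at 2-fold. The Ccng1 probe sets reach -1.38 to -2.33 in untreated pools and -0.39 to -1.31 in irradiated pools. Probe set 1419558_at of Mdm4, with TNFR KO arrays below the filter signal, lies at -1.55 in irradiated pools. The other Mdm4 probe sets lie above 0.

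Markers of host cells also differed between the hosts. Of 3 tested neutrophil markers, 3 were lower in irradiated and 2 in untreated TNFR KO tumours, with sums of 1014 to 1046 in irradiated TNFR KO against 23008 to 23782 in irradiated WT tumours, and 861.8 to 904.1 in untreated TNFR KO against 3495 to 3868 in untreated WT tumours. Of 5 tested fibroblast markers, 4 were higher in untreated TNFR KO tumours, where the sum was 14662 to 15028 against 4530 to 4636 in untreated WT tumours. In irradiated tumours 1 was higher and 1 lower, with sums of 9883 to 9887 in TNFR KO and 7108 to 7184 in WT tumours. Keratinocyte markers were higher for 4 of 4 in untreated and 1 of 4 in irradiated TNFR KO tumours, and muscle markers were lower for 2 of 5 in untreated and 3 of 5 in irradiated TNFR KO tumours. Of 6 macrophage markers 1 was lower in irradiated and 2 were higher in untreated TNFR KO tumours, and of 5 endothelial markers 0 and 2 were higher. Of 3 erythroid markers 2 were higher in irradiated and 1 was lower in untreated TNFR KO tumours. For the difference between radiation effects, in which 1450017_at of Ccng1 was called, 3 of 3 erythroid markers were called higher in TNFR KO hosts. In the same comparison 4 of 5 fibroblast, 3 of 6 macrophage, 2 of 3 neutrophil and 1 of 4 keratinocyte markers were called lower. Muscle, endothelial, lymphocyte and melanocyte markers had 0 calls in it. The part of all these cells in the Ccng1 and Mdm4 values was not tested. Of the 7 melanocyte markers, 1 was lower in untreated and 0 in irradiated TNFR KO tumours.

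Other genes of the pathway were read from lists with 1 probe set per gene, the brightest. Since the fit over both hosts called none of them, the genes named here were chosen after their values were seen. Of 10 tested p53 targets of cell death, 7 rose in TNFR KO and 6 in WT tumours and 0 fell, with medians of 1.21 and 1.20. Trp53inp1, a p53-induced nuclear protein, was 2.35 higher on the log2 scale in TNFR KO and 1.82 higher in WT tumours. Phlda3, an inhibitor of Akt signalling, had 1.71 and 1.60, the nuclease Aen 1.52 and 1.17, and Bbc3, which encodes the killer protein Puma, 1.36 and 1.29. Zmat3 and the death receptor Tnfrsf10b also rose in both hosts, and Pidd1 was called in TNFR KO tumours (1.48). Tnfrsf10b averaged 43.3 in untreated WT tumours, below the filter signal of 68.8. In WT tumours Pidd1 had 0.71 (adjusted p = 0.0137), short of 2-fold, and the difference between the hosts, 0.77 (adjusted p = 0.0469), was short of 2-fold as well. Of 10 tested p53 targets of repair and metabolism, 3 rose in TNFR KO and 2 in WT tumours. Sesn2, a stress-induced regulator of the growth kinase mTORC1, had 1.99 and 1.59, the repair nuclease Ercc5 1.22 and 1.60, and Cpt1c, a carnitine palmitoyltransferase, 1.38 and, short of 2-fold, 0.95.

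Upstream genes gave no radiation calls, which need 2-fold. Of 12 tested DNA damage kinases and other p53 regulators 0 were called for radiation in either host. Their medians were -0.27 in TNFR KO and -0.11 in WT tumours. Short of 2-fold, Atm, Chek1, Hipk2 and Trp53bp1 were lower and Chek2 and Rchy1 higher in TNFR KO tumours at an adjusted p under 0.05. In WT tumours Atm, Chek1, Cop1, Hipk2 and Mdc1 were lower at that threshold. Over all tested probe sets 16.4% in TNFR KO and 18.7% in WT tumours reached it at any fold. Atm, the kinase that reports DNA breaks, averaged 253 ± 7.35 in irradiated and 391 ± 24 in untreated TNFR KO tumours, and 516 ± 59.3 in irradiated and 715 ± 21.1 in untreated WT tumours (SD of 2 arrays). Those are log2 differences of -0.60 in TNFR KO and -0.46 in WT tumours (adjusted p = 0.016 and 0.0285 in limma). Between the hosts, 3 of the 12 were called lower in TNFR KO tumours over both treatments (Atm, Atr and Cop1). In irradiated tumours 2 were called lower, and in untreated tumours 1. Over all tested probe sets 13.3%, 7.7% and 6.74% were called lower in these comparisons. Of 19 tested mitotic genes 5, 3 and 1 were. Of 14 tested cyclins, kinases and inhibitors of G1, 0 were called in TNFR KO and 1 in WT tumours, where the cyclin E2 gene Ccne2 fell by 1.06 on the log2 scale. Of 12 tested relatives of the genes described here, such as Ccng2, Btg1 and Ppm1a, 0 were called in TNFR KO and 2 in WT tumours. Both of the 2 belong to the Gadd45 family: Gadd45b had a log2 difference of -0.005 in TNFR KO and 1.65 in WT tumours, and the difference between the hosts, -1.65, was called. Gadd45g had 0.65 in TNFR KO and 1.40 in WT tumours, and the difference of -0.75 was not called. Mitotic genes had medians of -0.55 in TNFR KO and -0.56 in WT tumours over 19 tested. Mki67 (-1.47), Hmmr (-1.30) and Cenpf (-1.19) were called lower in TNFR KO tumours, and 0 genes in WT tumours. In WT tumours every tested mitotic gene except Mki67 was lower at an adjusted p under 0.05, short of 2-fold. The difference between the hosts' effects was called for Mki67 (-1.14, adjusted p = 0.0107 in limma). It did not pass for Hmmr (adjusted p = 0.195) or Cenpf (0.156). Aurkb went the other way, at 0.27 in TNFR KO and -0.44 in WT tumours. Its difference between the hosts' effects was 0.70 (adjusted p = 0.0195 in limma), short of 2-fold. Over the 19 mitotic genes the median of this difference was 0.04.

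**Figure D4:**
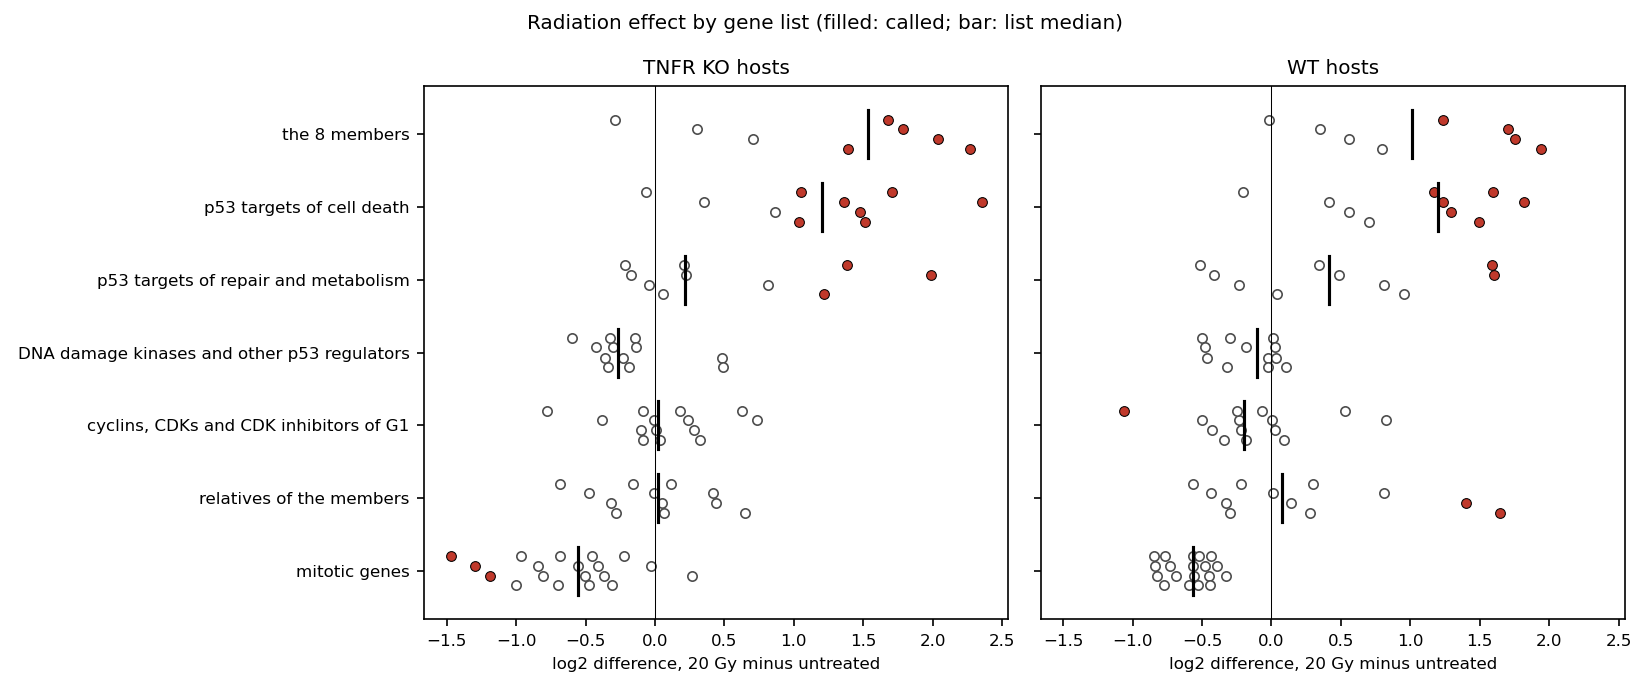
Log2 difference between irradiated and untreated tumours in TNFR KO hosts (left) and WT hosts (right) for the tested genes of each list, with the brightest probe set of each gene; filled points were called and bars mark list medians. Called genes lie to the right of 0 among the 8 genes described here and the 2 lists of p53 targets, and the mitotic genes have medians of -0.55 and -0.56.

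The genes whose pattern over the 4 pools came nearest to that of Cdkn1a were found by the root mean square distance between centred log2 values of the brightest probe sets, over 4 pools. Among the 8 genes themselves Plk2 was nearest (0.08), followed by Btg2 (0.23), Mdm2 (0.58), Ppm1d (0.68), Gadd45a (0.75), Ccng1 (0.84) and Mdm4 (1.01). Among 11337 other genes the 5 nearest were Mylk3, a myosin light chain kinase (0.12), Pqlc3 (0.13), the thiamine transporter gene Slc19a2 (0.18), Dcxr, a carbonyl reductase (0.20), and the peroxisomal thiolase gene Acaa1b (0.21). Mylk3 averaged 181 ± 39.3 in irradiated and 42.2 ± 4.95 in untreated TNFR KO tumours, and 161 ± 7.14 in irradiated and 41.7 ± 4.88 in untreated WT tumours (SD of 2 arrays). Acaa1b averaged 36.0 in untreated TNFR KO and 28.5 in untreated WT tumours. Both genes thus lay below the filter signal of 68.8 in the untreated pools and entered the comparison only through their irradiated pools. Their nearness to Cdkn1a is therefore no support for a shared response. Dcxr averaged 5869 ± 320 and 1530 ± 76.7 in the irradiated and untreated TNFR KO pools and 4768 ± 296 and 1793 ± 77.4 in the irradiated and untreated WT pools. With 4 pools these distances describe likeness of level changes and nothing further. The plot of centred profiles shows the 8 genes beside these.

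**Figure D5:**
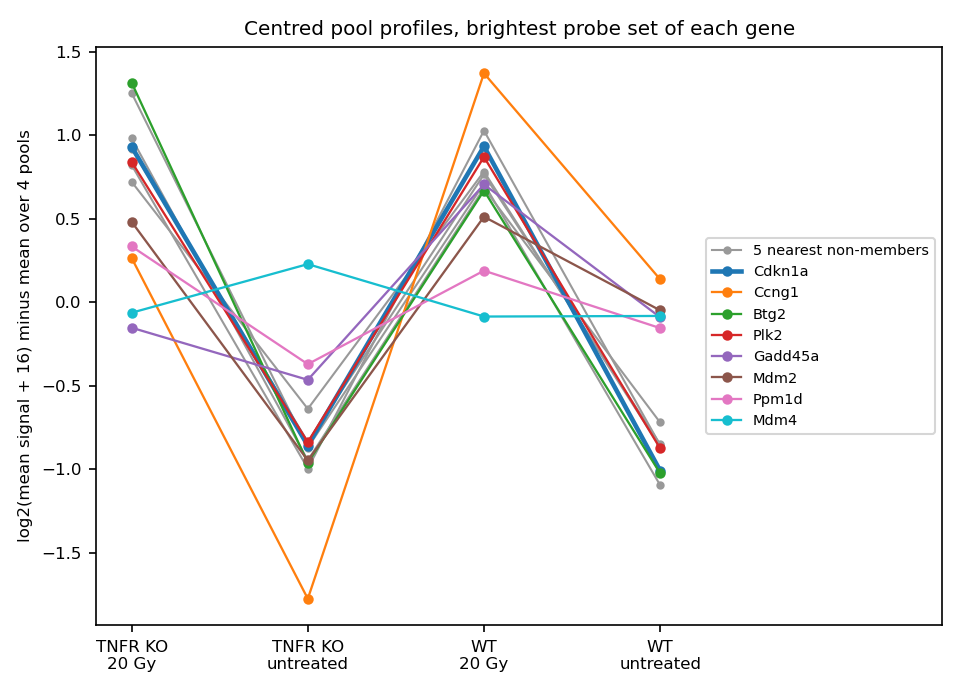
Log2(mean signal + 16) minus its mean over the 4 pools (vertical) for the brightest probe set of each of the 8 genes and of the 5 nearest other genes (grey), by pool; lines join points of one gene. Plk2 follows Cdkn1a at a distance of 0.08, whereas Ccng1 lies lowest in the untreated TNFR KO pool and Mdm4 stays near level.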

How the data were processed

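The deposited values are MAS5 signal intensities on a linear scale, MAS5 being named without a version in the submitters' processing notes. Scaling by the authors shows in the 2%-trimmed mean, which was 500.00 on all 8 arrays. RNA had been pooled by group and 6 µg of it labelled, per the labels' protocols. Detection calls were not used here, and the number of arrays limits precision.

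Signals were transformed as log2(signal + 16), and 22519 of 45037 probe sets at or above the median were tested in limma 3.58.1 (R 4.3.3), with Benjamini-Hochberg adjustment over all of them. Effects over both hosts or both treatments were fitted additively on the 4 pool means (1 residual and 4.41 prior degrees of freedom) and called at an adjusted p under 0.05. Single-pool comparisons and the difference between radiation effects used the 8 arrays in 4 groups (4 residual and 1.98 prior degrees of freedom), and a call also needed a 2-fold difference. All tests were two-sided, and the fits were tested on simulated data.

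Symbols came from the supplied annotation, in which 34945 probe sets named 1 gene, 932 several and 9160 none. All 19 probe sets of the listed genes are given. Genes of other lists were to be named where radiation over both hosts was called, at most 4 a list, and the nearest patterns by rank. The genes, lists and tests were chosen with earlier results of these data known. Alternatives were other scalings, pseudocounts, filters, variance models and folds, 1 probe set per gene, a block for the replicate number, and fits without each array. Promoters are from RefSeq (GRCm38.p6).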

Additional observations from a re-analysis of the deposited data

Results flagged for a closer look

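The radiation effect on probe set 1450017_at of Ccng1 was larger in TNFR KO than in WT hosts, by 1.02 ± 0.14 on the log2 scale (adjusted p = 0.0189 in limma's test of the difference itself on the 8 arrays). It was singled out because the effects of the same treatment differed between the hosts. The probe set averaged 1280.5 in irradiated and 270.4 in untreated TNFR KO tumours, against 3190 in irradiated and 1418 in untreated WT tumours. The other 2 Ccng1 probe sets differed in the same direction, by 0.81 and 0.99, without reaching 2-fold. The test rests on duplicate arrays of 1 pool per group, and the direction turned on the linear scale.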

How the results depend on the processing

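Counts of the 16 probe sets moved with the unit and variance model of the fit. For radiation over both hosts the count called was 0, but 9 with arrays centred on the median, 9 with a pseudocount of 64, 11 with the filter at the 75th percentile, 10 with limma-trend, 5 with the brightest probe set of each gene, 13 with the 8 arrays as 4 group means and 13 with the replicate block. For host over both treatments it was 3, but 5 centred, 6 with a pseudocount of 64, 0 with no filter, 6 with the 75th percentile filter, 7 with limma-trend, 7 on the 8 arrays and 8 with the replicate block. The brightest probe set of each gene gave 5 for radiation in TNFR KO hosts, 4 in WT hosts, 1 for the hosts irradiated, 1 untreated and 0 for the difference between radiation effects, since it leaves fewer probe sets. Centring gave 5 in WT hosts, 5 for the hosts untreated and 3 for the difference. With no fold threshold the counts were 8 for the hosts irradiated, 7 untreated and 3 for the difference, and with a 1.5-fold threshold 5, 5 and 3. The difference count was 0 with quantile normalization, 2 with no pseudocount, 0 with a pseudocount of 64 and 0 with no filter. Where no reason is given, the cause was not tested.

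Leaving out 1 array at a time gave 0 to 0 for radiation over both hosts, 2 to 3 for host over both treatments, 7 to 10 for radiation in TNFR KO, 9 to 9 in WT, 3 to 4 for the hosts irradiated, 3 to 4 untreated and 0 to 1 for the difference. With an array left out, its lone duplicate is assumed to vary like the other pools. On the linear scale the radiation gain of Ccng1 1450017_at in TNFR KO minus that in WT was -761.8 units, the opposite direction. No other called value changed sign under these alternatives, while 43 of 2005 uncalled values did.

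Over all tested probe sets, radiation over both hosts was called for 5, but for 366 centred, 94 with a pseudocount of 64, 1007 with the 75th percentile filter, 251 with limma-trend, 216 with 1 probe set per gene, 5901 on the 8 arrays, 4721 with the replicate block and 0 with quantile normalization, no pseudocount or no filter. The split of higher against lower calls over all tested probe sets depended on the scaling. It was 5 against 0 for radiation over both hosts and 183 against 183 centred, 448 against 52 for radiation in WT hosts and 230 against 253 centred, 216 against 1735 for the hosts irradiated and 423 against 1479 with quantile normalization, 796 against 1518 for the hosts untreated and 466 against 2357 centred, and 41 against 577 for the difference and 239 against 403 centred. Same-numbered arrays of different pools did not deviate together (correlations of -0.02 to 0.02), so the numbers pair nothing. In the comparisons fitted on the 8 arrays the block left every count of the 16 as it was. Depth is limited to 2 arrays of 1 pool per group, and 3 of the 19 probe sets were too dim to test.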
